A study of Mus musculus with 8 samples.

Results

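The SR splicing factors are 10 serine/arginine-rich RNA-binding proteins, here Srsf1, Srsf2, Srsf3, Srsf4, Srsf5, Srsf6, Srsf7, Srsf9, Srsf10 and Srsf11. They were chosen by name, as every row whose gene symbol in the deposited gene table was one of these 10, and the rule uses no measured value, although earlier results of these data were known when it was written. This gave 11 transcripts among the 28662 in the expression table, because Srsf10 has 2 rows, uc008vhb.1 and uc008vhe.1. All 11 passed the filter on low values (at least 10 RPM in at least 1 mouse), as did 10588 transcripts in all, which are called genes from here on. The row named Srsf12 in the file carries a RefSeq accession of Srek1 and was counted under that gene, and the gene now called Srsf12, listed in the file as Srsf13b, was taken with the SR-related genes.

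The samples were right cortices of 4 bigenic and 4 nontransgenic C57BL/6 mice, from which poly(A)+ RNA was sequenced. The bigenic mice carried a Camk2a-tTa driver together with a tetracycline-responsive human TDP-43 whose nuclear localization signal is defective (deltaNLS-hTDP-43), so the transgene acts in the forebrain neurons in which the Camk2a promoter works, whereas whole cortex was measured. Doxycycline, which holds the transgene off, was withdrawn at 28 days of age, and tissue was taken 10 days later. Monogenic mice are not among these 8, so the effect of the driver and that of TDP-43 cannot be told apart.

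SR proteins bind short enhancer sequences in exons through their RNA recognition motifs, and recruit the spliceosome to nearby splice sites through a tail rich in arginine–serine dipeptides, the RS domain. Phosphorylation of this domain by SRPK and CLK kinases controls their entry into the nucleus, their release from nuclear speckles and their activity, and dephosphorylation accompanies splicing and mRNA export. Many SR genes limit their own expression through exons or introns that bring in a premature stop codon, so that the alternative transcript is degraded by nonsense-mediated decay. TDP-43 is itself a nuclear splicing regulator that binds UG-rich RNA.

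The RS domain is the feature that the family shares. For each gene the longest complete coding sequence in GENCODE was read, and its arginine–serine or serine–arginine pairs were counted. They ranged from 4.05 per 100 codons in Srsf9 and 8.02 in Srsf11 to 21.8 in Srsf6 and 21.4 in Srsf4, with 18.1 in Srsf5, 15.2 in Srsf3 and 11.9 in Srsf1. The stretches of 30 codons with the most pairs inside 1 exon are shown on the coding strand of mm9 for Srsf5, the gene that rose in the bigenic mice, for Srsf1 and Srsf2, the best known members, and for the distant relative Srsf11. Codons that take part in a pair are in capitals.
Srsf5, chr12:82050744-82050833, plus strand: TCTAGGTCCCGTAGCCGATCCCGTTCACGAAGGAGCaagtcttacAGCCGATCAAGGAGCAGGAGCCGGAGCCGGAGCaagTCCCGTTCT
Srsf1, chr11:87862968-87863057, plus strand: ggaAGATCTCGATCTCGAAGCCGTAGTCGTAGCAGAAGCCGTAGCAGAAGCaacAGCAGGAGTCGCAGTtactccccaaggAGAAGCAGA
Srsf2, chr11:116713435-116713524, minus strand: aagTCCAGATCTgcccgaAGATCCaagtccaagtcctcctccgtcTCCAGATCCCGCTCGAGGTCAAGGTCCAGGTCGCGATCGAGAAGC
Srsf11, chr3:157679327-157679416, minus strand: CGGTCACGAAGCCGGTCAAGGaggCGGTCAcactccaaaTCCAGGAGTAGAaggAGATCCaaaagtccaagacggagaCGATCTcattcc
These windows held 22 pairs in Srsf5, 21 in Srsf1, 17 in Srsf2 and 12 in Srsf11. All 4 windows lie in coding exons.

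Since TDP-43 binds UG repeats, the genes were also searched on their own strand for runs of at least 6 TG repeats. Such a run was found in 3 of the 10 genes, each time in an intron, and the longest run of each gene is shown with 10 bases on either side, the repeat in capitals.
Srsf3, chr17:29169984-29170039, plus strand: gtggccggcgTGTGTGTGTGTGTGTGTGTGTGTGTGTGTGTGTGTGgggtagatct
Srsf9, chr5:115779029-115779066, plus strand: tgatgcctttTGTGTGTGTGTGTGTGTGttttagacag
Srsf11, chr3:157692133-157692192, minus strand: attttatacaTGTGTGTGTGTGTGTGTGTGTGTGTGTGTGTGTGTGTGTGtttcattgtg
The runs hold 18, 9 and 20 repeats. Runs of this kind are common, since among genes of like length they occur in 49.0% for Srsf3, 24.2% for Srsf9 and 83.4% for Srsf11, and no binding was measured in these files. For the SR genes without a run this share went from 8.06% (Srsf2) to 61.9% (Srsf10) and 86.2% (Srsf4). Srsf5 has no such run, its longest being 5 repeats.

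The deposited values are normalized counts, that is, reads divided by a factor for each mouse. About 10.6 to 31.9 M reads per mouse lay on genes, and 3 reads correspond to 1.94 to 6.20 normalized counts, far below every SR value, the lowest of which was 236. The transcript uc999vvf.1, which has no gene symbol, had 29375 to 41550 normalized counts in bigenic and 5 to 80 in nontransgenic animals, so the columns fall into their labelled groups. Mouse Tardbp fell in the bigenic mice, with -0.33 as its log2 fold change (limma adjusted p = 0.00645). One bigenic mouse, called the mouse apart below, had the fewest reads (10.6 M) and lay away from the other 3 on the first principal component, which holds 58.9% of the variance (its score was -46.0, theirs -15.1 to -12.8). Its values also rose with GC content, by 0.31 on the log2 scale per 10 percentage points, against slopes of -0.14 to 0.10 in the other 7 mice. Each SR result is therefore given with and without it, and also after removal of each mouse's trend on GC content and length where that changed a call. Nothing in the sources used here describes a batch.

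Over all genes tested, limma called 20.5% higher and 15.4% lower in the bigenic mice at an adjusted p below 0.05. Of the markers of brain cell types, 2 of 13 neuronal genes tested were called higher and 6 lower, 4 of 11 astrocyte genes lower, 5 of 9 microglial genes lower, 1 of 11 oligodendrocyte genes higher and 1 of 7 endothelial genes lower. The summed neuronal markers ranged from 178885 to 240333 normalized counts in the bigenic mice and from 218314 to 236835 in the nontransgenic mice. The highest bigenic sum, 240333, was that of the mouse apart, and every other bigenic mouse lay below all nontransgenic mice. Summed microglial markers were 5268 to 6873 against 7057 to 8321, and summed astrocyte markers 127776 to 147288 against 155775 to 167301. Summed oligodendrocyte markers were 67029 to 89772 against 68671 to 85881, and summed endothelial markers 4191 to 4829 against 4620 to 5856. All 4 choroid plexus markers that could be tested, of 12 in the list, were called higher, with sums of 8381 to 19521 against 383 to 1246. Kl, Clic6 and Prlr passed the filter on low values through bigenic mice only, so the filter favoured a higher call for them. Their highest nontransgenic values were 99, 46 and 78 normalized counts, and their highest bigenic values 428, 260 and 313. Ttr passed the filter in both groups, with 7741 to 18520 normalized counts in bigenic and 236 to 1023 in nontransgenic animals. The part of these cell types in the SR values was not tested, and in whole tissue fewer cells of a type and less RNA per cell cannot be told apart.

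The comparison of bigenic with nontransgenic mice asks whether expression of the mislocalized TDP-43 goes with a change in the RNA of the SR proteins. Srsf5 rose and Srsf3 fell, and the other 9 SR transcripts did not pass the test. Fold changes and p-values come from limma on log2(normalized count + 1), with the Benjamini-Hochberg adjustment over all 10588 genes and a threshold of 0.05. The call of 1 of 11 SR transcripts higher stands against 20.5% of all genes tested, and that of 1 of 11 lower against 15.4%, so neither count is above the background. Without the mouse apart, 1 of 11 was called higher (background 25.3%) and 3 of 11 lower (background 20.2%), namely Srsf1, Srsf3 and Srsf7. The number called lower was 2 without the bigenic mouse of the first or of the third column and 0 without any 1 of the nontransgenic mice. Over all 10588 genes it was 1480 and 1540 without those bigenic mice, and 1113 to 1425 without 1 nontransgenic mouse. The 4 bigenic values did not overlap the 4 nontransgenic values in 4 of 11 transcripts, 1 higher and 3 lower, against 39.0% of all genes. The median log2 fold change of the 11 was -0.25 (-0.18 without the mouse apart), beside 0.03 (0.02) for all genes tested, and 8 of the 11 lay below 0 (9 without the mouse apart).

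**Figure D1:**
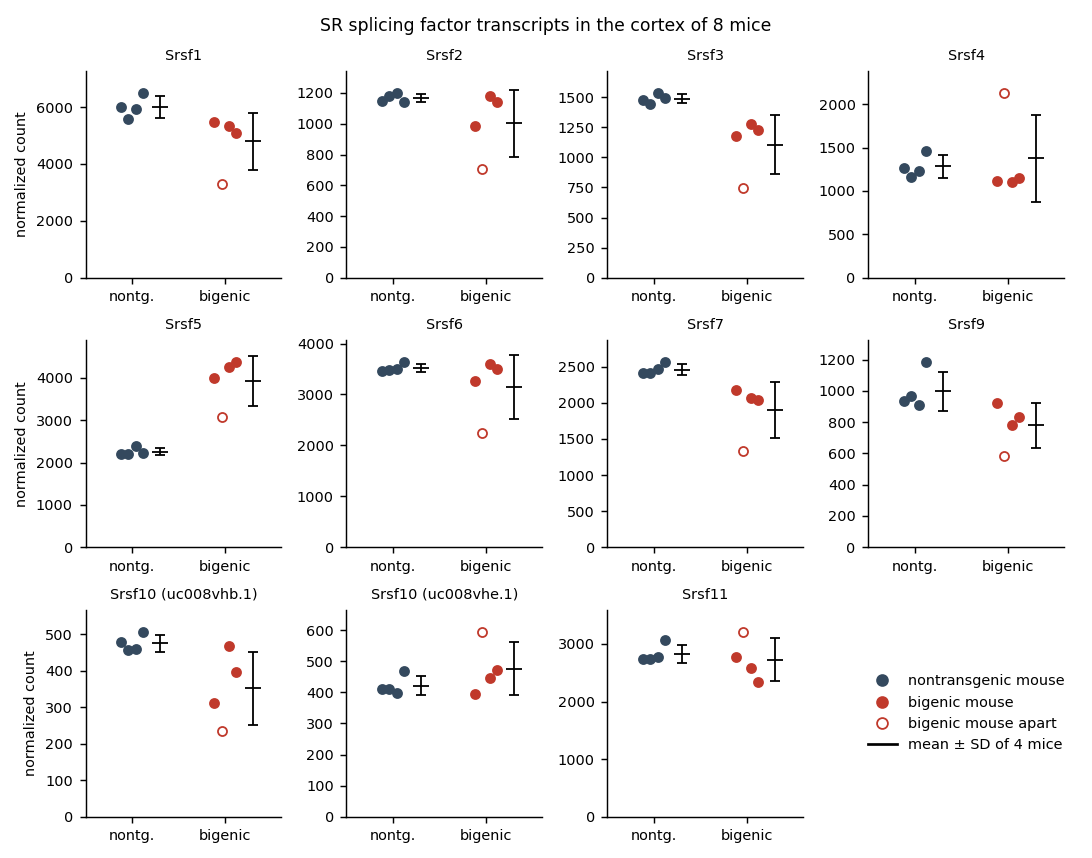
Normalized counts (y axis, from 0) of the 11 SR transcripts in each of the 4 nontransgenic (dark points) and 4 bigenic mice (red points; the open point is the mouse apart), with the mean ± SD of 4 mice beside each group. Srsf5 lies at 3073 to 4368 in bigenic and at 2206 to 2390 in nontransgenic animals, and in most other panels the open point is the lowest.

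Srsf5 (uc007obp.1; mm9 chr12:82046491-82051494, plus strand) was the SR gene with the largest change. It binds exonic enhancers through a pair of RNA recognition motifs and is itself alternatively spliced. The 4 bigenic mice, in the order of the deposited columns and with the mouse apart as the second value, had 3989, 3073, 4267 and 4368 normalized counts, and the nontransgenic mice had 2208, 2206, 2390 and 2233. Every bigenic value lay above every nontransgenic value, and the mouse apart was the lowest of its group. The means were 3924 ± 590 (SD, n = 4) and 2259 ± 88.0 (SD, n = 4), a log2 fold change of 0.78 (SE 0.11, 95% confidence interval 0.54 to 1.03, limma adjusted p = 0.000691), or 1.72-fold. Without the mouse apart the log2 fold change was 0.90 (0.76 to 1.03, limma adjusted p = 2.69e-06), or 1.86-fold. Srsf5 was called in every alternative tried, with log2 fold changes between 0.73 and 0.91 and limma adjusted p-values of at most 0.00386. GENCODE lists 13 transcripts of Srsf5, of which 2 are marked for nonsense-mediated decay and 3 retain an intron. The values sum reads over exons, so a change in productive and in unproductive transcripts cannot be told apart. Of the 50-base windows in its exons, 82.6% occur once in the genome, and the rest could not receive uniquely mapping reads without mismatch.

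Srsf3 and Srsf7 have a single RNA recognition motif, shuttle between nucleus and cytoplasm, and link splicing with mRNA export by binding the export receptor Nxf1. Srsf3 (uc008bsd.2; chr17:29169618-29180311, plus strand) had 1179, 742, 1275 and 1226 normalized counts in bigenic and 1479, 1444, 1536 and 1489 in nontransgenic animals. All bigenic values were lower, and the mouse apart was far the lowest. The log2 fold change was -0.46 (SE 0.16, 95% confidence interval -0.80 to -0.11, limma adjusted p = 0.0427), and without the mouse apart -0.28 (-0.41 to -0.15, limma adjusted p = 0.00338). The call was lost without the bigenic mouse of the first column or without any 1 of the 4 nontransgenic mice (limma adjusted p = 0.0559 to 0.1002), and also with no filter (limma adjusted p = 0.0557) or after rescaling all mice to a common total (limma adjusted p = 0.0624). In Srsf3, 82.5% of windows occur once in the genome, and 1 of its 5 annotated transcripts is marked for decay and 3 retain an intron.

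Srsf7 (uc008dqq.2; chr17:80599429-80606629, minus strand), which also has a zinc knuckle, had 2182, 1334, 2062 and 2036 normalized counts in bigenic and 2406, 2414, 2462 and 2560 in nontransgenic animals. The groups did not overlap, and the mouse apart was again the lowest. The log2 fold change was -0.40 (SE 0.14, 95% confidence interval -0.71 to -0.08, limma adjusted p = 0.0523), which did not pass the threshold. Without the mouse apart the estimate was closer to 0 but less variable, at -0.23 (-0.36 to -0.11, limma adjusted p = 0.00716), and passed it. Srsf7 was also called when a filter was applied in every mouse (limma adjusted p = 0.0490), after quantile normalization (0.0382), after removal of the trend on GC content and length (0.0452), with array weights (0.000898) and without the bigenic mouse of the first column (0.0403).

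**Figure D2:**
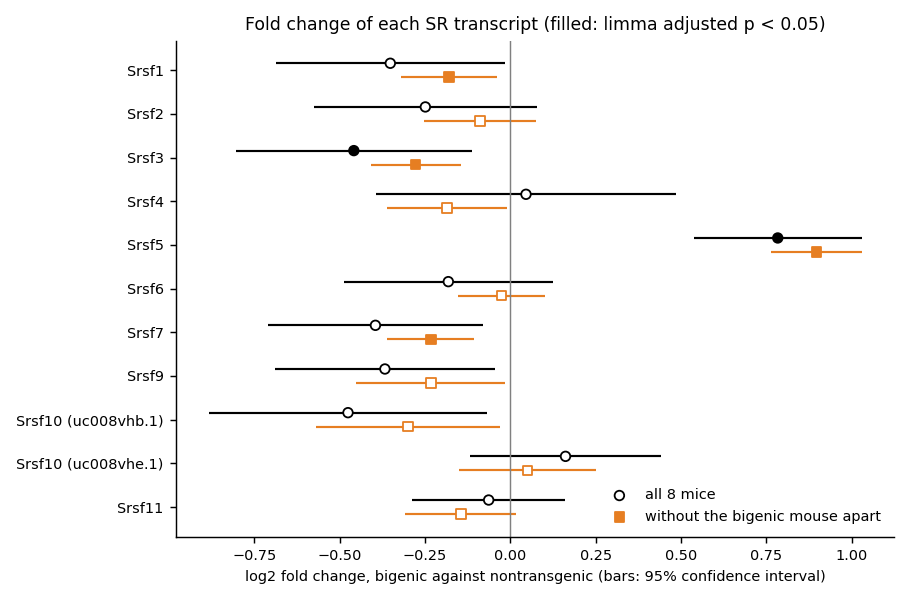
Log2 fold change of each SR transcript in bigenic against nontransgenic mice (x axis), with 95% confidence intervals, over all 8 mice (circles) and without the mouse apart (squares). Filled symbols have a limma adjusted p below 0.05: Srsf5 at 0.78 and Srsf3 at -0.46 over all mice, and Srsf1 at -0.18 and Srsf7 at -0.23 as well once the mouse apart is left out.

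Srsf1, Srsf4, Srsf6 and Srsf9 have, like Srsf5, a pair of RNA recognition motifs. Srsf1 (uc007kvc.1; chr11:87860875-87867257, plus strand), the prototype of the family, had 5462, 3286, 5324 and 5097 normalized counts in bigenic and 6001, 5595, 5922 and 6500 in nontransgenic animals. The groups did not overlap, although the highest bigenic and the lowest nontransgenic value were close. Its log2 fold change was -0.35 (95% confidence interval -0.69 to -0.02, limma adjusted p = 0.0930), and -0.18 without the mouse apart (-0.32 to -0.04, limma adjusted p = 0.0391). Exons of Srsf1 overlap those of Gm11508 on the opposite strand. The libraries are described as stranded, but no source used here says that strand entered the counting.

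Srsf4 (uc008vaf.2; chr4:131429532-131457640, plus strand) went the other way in 1 animal. It had 1119, 2130, 1107 and 1143 normalized counts in bigenic and 1268, 1163, 1232 and 1462 in nontransgenic animals. The mouse apart had the highest value of all 8, and the other 3 bigenic mice lay below all 4 nontransgenic mice. The log2 fold change was 0.05 (-0.39 to 0.49, limma adjusted p = 0.873) with that mouse and -0.18 (-0.36 to -0.01, limma adjusted p = 0.0809) without it, so the sign turned when 1 animal was left out. Exons of Srsf4 overlap those of Gm12992 on the opposite strand.

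Srsf6 (uc008nsc.2; chr2:162757264-162762857, plus strand) had 3262, 2240, 3600 and 3494 normalized counts in bigenic and 3453, 3472, 3497 and 3630 in nontransgenic animals. Apart from the second bigenic value the groups overlapped. The log2 fold change of -0.18 (-0.49 to 0.12, limma adjusted p = 0.324) became -0.03 without that mouse (-0.15 to 0.10, limma adjusted p = 0.734). Srsf9 (uc008zdq.1; chr5:115777186-115783089, plus strand), with the fewest arginine–serine pairs, had 922, 581, 781 and 835 normalized counts in bigenic and 933, 966, 910 and 1182 in nontransgenic animals. One bigenic value lay within the nontransgenic range. The log2 fold change was -0.37 (-0.69 to -0.05, limma adjusted p = 0.0712) and did not pass without the mouse apart either (-0.23, limma adjusted p = 0.0762), but it did without the bigenic mouse of the first column (-0.45, limma adjusted p = 0.0424).

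Srsf2 (uc007mmn.2; chr11:116711215-116714408, minus strand) stays in the nucleus and is a classical marker of nuclear speckles. It had 983, 703, 1181 and 1140 normalized counts in bigenic and 1150, 1180, 1201 and 1140 in nontransgenic animals, with overlap between the groups. The log2 fold change was -0.25 (-0.58 to 0.08, limma adjusted p = 0.210), and -0.09 without the mouse apart (-0.25 to 0.08, limma adjusted p = 0.352). Exons of Srsf2 overlap those of Mfsd11 on the opposite strand.

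Srsf10 (chr4:135411662-135425823, plus strand) represses splicing when it is dephosphorylated, as in heat shock, and is the only member with 2 rows. The first, uc008vhb.1, had 311, 236, 466 and 395 normalized counts in bigenic and 479, 456, 459 and 506 in nontransgenic animals, so that the log2 fold change was -0.48 (-0.88 to -0.07, limma adjusted p = 0.0662). The other, uc008vhe.1, had 394, 594, 446 and 470 against 409, 411, 398 and 468, a log2 fold change of 0.16 (-0.12 to 0.44, limma adjusted p = 0.339). Neither row passed the test, and in both the groups overlapped. Without the mouse apart the log2 fold changes were -0.30 (limma adjusted p = 0.0661) and 0.05 (limma adjusted p = 0.679), and without the bigenic mouse of the third column the first row was called (-0.63, limma adjusted p = 0.0170). It was also called after removal of the trend on GC content and length (-0.38, limma adjusted p = 0.0491).

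The ratio of the first row of Srsf10 to the other was 0.789, 0.397, 1.04 and 0.840 in bigenic and 1.17, 1.11, 1.15 and 1.08 in nontransgenic animals. The means were 0.768 ± 0.271 (SD, n = 4) and 1.13 ± 0.041 (SD, n = 4), and the groups did not overlap, with the mouse apart at the lowest ratio. Ratios were given after the values were seen and were not tested. Only 67.7% of the 50-base windows in the exons of Srsf10 occur once in the genome, the least of the 10 genes, and how the authors' counting divides reads between the rows is not given in the sources used here.

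Srsf11 (uc008rvo.1; chr3:157673437-157699603, minus strand), which is needed for the inclusion of microexons in neurons, had 2777, 3210, 2585 and 2333 normalized counts in bigenic and 2744, 2744, 2777 and 3067 in nontransgenic animals. The groups overlapped, and here the mouse apart was the highest. Its log2 fold change was -0.06 (-0.29 to 0.16, limma adjusted p = 0.647), and -0.15 without the mouse apart (-0.31 to 0.02, limma adjusted p = 0.129). Of its 15 annotated transcripts, 3 are marked for nonsense-mediated decay and 5 retain an intron.

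The SR transcripts varied more among bigenic than among nontransgenic mice, with coefficients of variation of 13.6% to 36.6% against 2.28% to 12.5%. The mouse apart carried much of that spread. Relative to the mean of the other 3 bigenic mice on the log2 scale it had a median difference of -0.62 over the 11 transcripts, with 8 below 0 and 7 at or below -0.5. Over all 10588 genes the median difference was 0.02, with 48.2% below 0 and 12.2% at or below -0.5. The exceptions among the SR transcripts were Srsf4, higher by 0.92, the second row of Srsf10, higher by 0.45, and Srsf11, higher by 0.33. GC content of the merged exons ran from 37.8% in Srsf10 to 55.6% in Srsf9. It was 39.7% in Srsf3, 40.4% in Srsf11, 40.5% in Srsf1 and 54.1% in Srsf4. Values of this mouse rose with GC content, and the part of GC content in these differences was not tested. Even in this mouse Srsf5 stood 0.44 above the nontransgenic mean, and in the other 3 bigenic mice it stood 0.82, 0.92 and 0.95 above it.

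**Figure D3:**
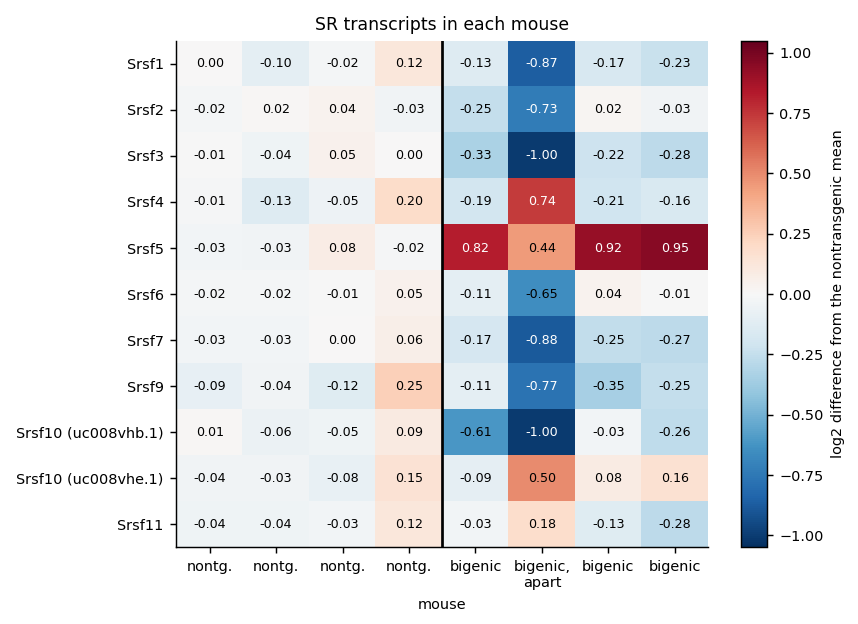
Log2 difference of each SR transcript (rows) in each mouse (columns) from the mean of the 4 nontransgenic mice, in red where higher and in blue where lower. The row of Srsf5 is red in all 4 bigenic mice (0.44 to 0.95), and the column of the mouse apart holds most of the deep blue, such as -0.87 in Srsf1 and -0.88 in Srsf7.

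To compare levels between genes, normalized counts were divided by the length of each gene's merged exons in kilobases, leaving out Srsf10, whose rows share exons. In the nontransgenic mice the order by level per kilobase was Srsf1 (1052 ± 65.5, SD, n = 4), Srsf7 (1036 ± 29.8), Srsf6 (926 ± 21.1), Srsf9 (734 ± 91.9), Srsf5 (567 ± 22.1), Srsf11 (397 ± 21.97), Srsf2 (394 ± 9.43), Srsf4 (358 ± 35.8) and Srsf3 (291 ± 7.43). Srsf1 and Srsf7 overlapped, as did Srsf11, Srsf2 and Srsf4, and the other neighbours in this order did not. In the bigenic mice Srsf5 came first, at 984 ± 148 (SD, n = 4), ahead of Srsf1 at 839 ± 178. With the longest transcript as the length, Srsf11 moved from the sixth to the fourth place in the nontransgenic mice, since its merged exons sum to 7135 bases and its longest transcript to 3106.

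The summed level per kilobase of these 9 genes was 5754 ± 248 (SD, n = 4) in the nontransgenic mice and 5349 ± 664 (SD, n = 4) in the bigenic mice, or 5681 ± 31.3 (SD, n = 3) without the mouse apart. Srsf5 made up 9.15% to 10.5% of that sum in the nontransgenic mice and 17.6% to 19.4% in the bigenic mice, with the mouse apart at 17.7%, inside the range of the other 3. Srsf1 made up 17.6% to 18.7% against 13.2% to 16.8%, and Srsf7 17.6% to 18.3% against 12.9% to 16.2%. The share of Srsf4 was 5.84% to 6.68% in the nontransgenic mice and 5.41% to 5.65% in 3 bigenic mice, but 13.7% in the mouse apart. Shares sum to the whole, so a higher share of Srsf5 lowers the others. The shares also depend on the length used, and the lengths were not corrected for windows that occur more than once. With the longest transcript, Srsf5 made up 8.59% to 9.86% in the nontransgenic and 16.1% to 18.3% in the bigenic mice. Srsf11 then reached 18.8% among the bigenic mice, so Srsf5 was not the largest in every one of them.

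**Figure D4:**
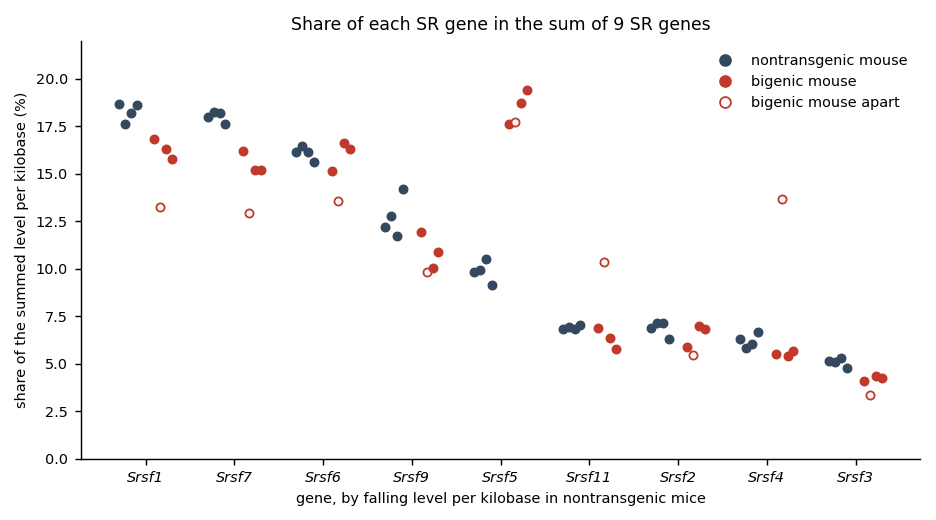
Share of each of 9 SR genes in their summed level per kilobase (y axis, percent), 1 point per mouse, with nontransgenic mice in dark, bigenic mice in red and the mouse apart open. With merged exons as the length, Srsf5 moves from about the middle of the order (9.15% to 10.5%) to the top (17.6% to 19.4%) in all 4 bigenic mice.

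The genes around the SR proteins were taken from lists written by hand. The counts of these lists stand against 20.5% of all genes called higher and 15.4% called lower, or 25.3% and 20.2% without the mouse apart. These shares are at an adjusted p below 0.05. No share of all genes at an unadjusted p is given, so the counts at an unadjusted p have no background to stand against. Of 30 SR-related and SR-like genes tested, 4 were called higher by limma and 0 lower (6 higher and 1 lower at an unadjusted p under 0.05, median log2 fold change 0.11), and without the mouse apart 5 higher and 1 lower. The share called was below that of all genes in both directions. Srsf12, the close relative of Srsf10, had 529, 484, 564 and 564 normalized counts in bigenic and 428, 397, 363 and 363 in nontransgenic animals, so that the log2 fold change was 0.46 (SE 0.0926, limma adjusted p = 0.00408). Every bigenic value was the higher. Scaf1, an SR-related protein that binds the tail of RNA polymerase II, rose by 0.76 on the log2 scale (SE 0.19, limma adjusted p = 0.0122), and by 0.54 without the mouse apart, which had 6357 normalized counts against 3287 to 3661 in the other 3 bigenic mice and 2137 to 2585 in the nontransgenic mice.

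Of 13 kinases tested that phosphorylate SR proteins or act on that step, 3 were called higher (20.5% of all genes) and 1 lower (15.4%), with a median of 0.09, and without the mouse apart 4 higher and 2 lower. Srpk1, the cytoplasmic kinase that primes SR proteins for nuclear import, had 1817, 2515, 2089 and 2137 normalized counts in bigenic and 1542, 1520, 1639 and 1749 in nontransgenic animals. Its log2 fold change was 0.40 (SE 0.10, limma adjusted p = 0.0137), with no overlap between the groups. Srpk2, the brain-enriched relative, was at 0.09 (-0.16 to 0.33, limma adjusted p = 0.569). The nuclear kinases Clk1 and Clk4 were at -0.25 (limma adjusted p = 0.274) and -0.37 (limma adjusted p = 0.0539), and in each gene the groups overlapped. Clk4 was called without the nontransgenic mouse of the first column (-0.48, limma adjusted p = 0.0217), after quantile normalization (-0.43, limma adjusted p = 0.0313) and with array weights (-0.28, limma adjusted p = 0.00756). Akt1, which can phosphorylate SR proteins downstream of growth factors, rose by 0.54 (limma adjusted p = 0.00264).

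The phosphatases form the list with the lowest median, -0.42. Of 7 tested, 4 catalytic subunits of PP1 and PP2A were called lower by limma (15.4% of all genes) and 0 higher (20.5%), with and without the mouse apart, and at an unadjusted p under 0.05 the numbers were the same. Ppp1cb, a catalytic subunit of PP1, had 7517, 5607, 7320 and 6843 normalized counts in bigenic and 10655, 10355, 10354 and 9479 in nontransgenic animals, so that the log2 fold change was -0.59 (SE 0.0981, limma adjusted p = 0.00164). Ppp2cb, a catalytic subunit of PP2A, had 2853, 1878, 3148 and 3078 against 4526, 4442, 4955 and 4139, a log2 fold change of -0.75 (SE 0.15, limma adjusted p = 0.00474). In both genes all 4 bigenic mice lay below all 4 nontransgenic mice. Both enzymes act on a great many proteins besides SR proteins. The other 3 genes of the list that were tested lay above 0 and were not called, namely Ppp1r8 (0.26), Ppp1r10 (0.21) and Ppm1g (0.13).

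Of 15 genes tested for import of SR proteins and export of mRNA, 5 were called higher (20.5% of all genes) and 2 lower (15.4%), with and without the mouse apart (median 0.04). The number called higher fell to 2 without the nontransgenic mouse of the first, of the second or of the third column. In those fits 1512 to 1605 of all 10588 genes were called higher. Tnpo3, the importin that carries phosphorylated SR proteins into the nucleus, had 2548, 2984, 2428 and 2414 normalized counts in bigenic and 2093, 1864, 2052 and 2198 in nontransgenic animals, so that the log2 fold change was 0.34 (SE 0.0906, limma adjusted p = 0.0173). The groups did not overlap, but the call was lost without the nontransgenic mouse of the second column (limma adjusted p = 0.0599). The importin Tnpo2 rose by 0.63 (limma adjusted p = 0.00223) and Tnpo1, which imports RNA-binding proteins with a proline–tyrosine signal, fell by 0.37 (limma adjusted p = 0.0149). Ncbp1, the large subunit of the nuclear cap-binding complex, fell by 0.48 (limma adjusted p = 0.00256).

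Of 17 genes tested for nonsense-mediated decay and the exon junction complex, 6 were called higher by limma (20.5% of all genes) and 0 lower (15.4%), with a median of 0.36, and 8 and 0 without the mouse apart. At an unadjusted p under 0.05 there were 9 higher and 0 lower, which cannot be set against the shares at an adjusted p. Upf2, which bridges the exon junction complex and Upf1, had 4079, 4928, 4222 and 3944 normalized counts in bigenic and 2776, 2595, 2496 and 2973 in nontransgenic animals. Its log2 fold change was 0.66 (SE 0.0918, limma adjusted p = 0.000648), with no overlap. Smg6, the endonuclease that cuts decaying transcripts, rose by 0.48 (limma adjusted p = 0.00122) and Upf1, the central helicase, by 0.43 (limma adjusted p = 0.00681).

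**Figure D5:**
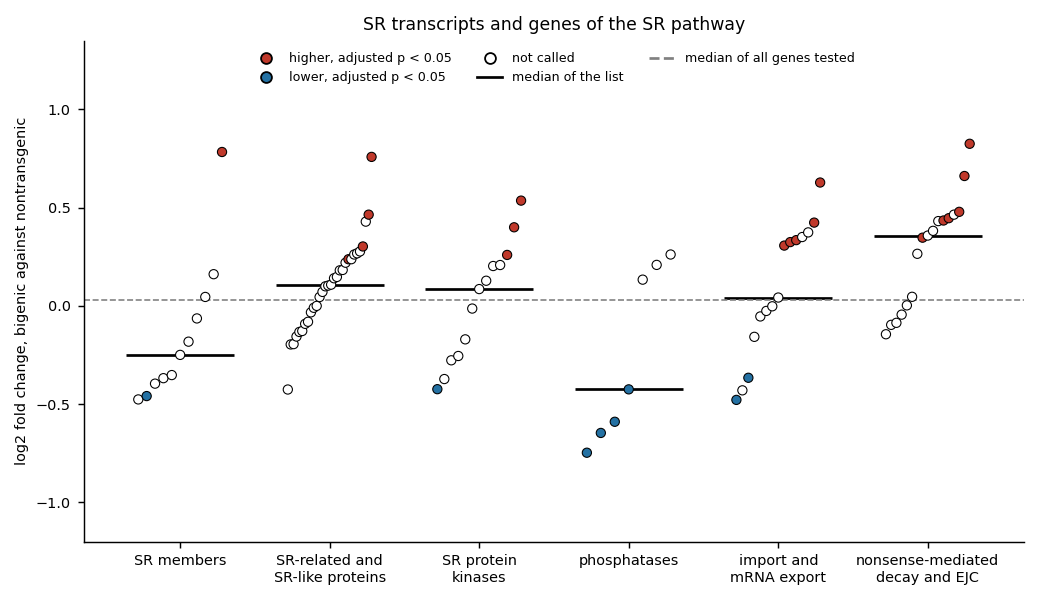
Log2 fold change (y axis) of each gene in the SR family and in the 5 pathway lists, in red where called higher, in blue where called lower and open where not called, with the median of each list (bar) and of all genes tested (dashed, 0.03). The list medians run from -0.42 for the phosphatases to 0.36 for nonsense-mediated decay, with the SR transcripts at -0.25.

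The genes whose log2 values were most like those of Srsf5 over the 8 mice were Ndel1 (Pearson r = 0.995), Mrm1 (0.994) and Frs2 (0.992), all 3 called higher. Those most like Srsf3 were Wdr26 (0.995), Cdkn1b (0.995) and Sp1 (0.991). None of these 3 passed the test, with log2 fold changes of -0.29, -0.30 and -0.24 (limma adjusted p = 0.0738 for Wdr26, 0.0593 for Cdkn1b and 0.10003 for Sp1). These correlations are a description over 2 groups of 4 mice. They include the difference between the groups and the mouse apart.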

How the data were processed

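Before deposit the authors removed adaptors (cutadapt), aligned to mm9 (Bowtie 0.12.7), kept unique matches, counted reads on exons with bedtools and summed them per gene. The deposited signal is a whole-number normalized count per transcript and mouse. What 1 read is worth was estimated from the spacing of the values (8 of 8 simulated columns recovered). A second deposited table, of the authors' DESeq2 results, gave symbols only, and its fold changes and p-values were not used. Columns name a group but no replicate number. Genes with at least 10 RPM in at least 1 mouse were tested with limma 3.58.1 (R 4.3.3; lmFit, eBayes with a trend) on log2(value + 1), threshold 0.05. In a test on simulated data, 200 of 200 changed genes and 8 unchanged genes were called. Whole reads could not be recovered for all mice, so no count test was run. P-values measure the spread between these mice. Positions and sequences come from GENCODE vM1 on mm9. GC content and length were known for 96.5% of genes.

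The members and lists were chosen with earlier results of these data known. Named genes are the 10 SR members, up to 2 higher and 2 lower genes with the smallest adjusted p of each pathway list, the kinases Clk1, Clk4, Srpk1 and Srpk2, Upf1, the checks of the labels, and the 3 genes most like the SR member that rose and the one that fell with the smallest adjusted p. One gene that this rule names is not reported here. Alternatives were pseudocounts of 10 and 0.1, no filter, a filter in every mouse, rescaling, quantile normalization, array and voom weights, a threshold of 0.01, each mouse left out and, for levels, the longest transcript. Removing a trend on GC content and length, quadratic in each, was chosen after seeing the data. Python 3.11.15, numpy 2.4.6, pandas 2.3.3, pysam 0.24.0 and matplotlib 3.10.9 were used. The floors of 3 reads cover counting error only.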

Additional observations from a re-analysis of the deposited data

Results flagged for a closer look

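Within each group of 4 mice, a value was singled out when its gap to the nearest other value took up more of the group's range than the 95% limit of Dixon's test for 4 values. Chance singles out about 1 group in 20, and 6 of the 56 groups examined had such a value. In 3 of the 6 it belonged to the bigenic mouse apart, with 3286 normalized counts of Srsf1 (5097 to 5462 in the other bigenic mice), 2130 of Srsf4 (1107 to 1143) and 6357 of Scaf1 (3287 to 3661). The others were nontransgenic mice, with 2390 of Srsf5 (2206 to 2233 in the other nontransgenic mice), 3067 of Srsf11 (2744 to 2777) and 4051 of Tnpo2 (3698 to 3747). The nontransgenic value of 2390 for Srsf5 is still below the lowest bigenic value.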

How the results depend on the processing

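Srsf5 kept its direction and its call under every alternative, whereas the call of Srsf3 and the number of SR transcripts called lower (1) depended on the setting. Srsf3 was lost with no filter (-0.46), with rescaling (-0.46) and at a threshold of 0.01 (-0.46), where 0 SR transcripts were called lower. The number was 2 with a filter in every mouse, which added Srsf7 (-0.40), 3 after quantile normalization, with Srsf7 (-0.45) and Srsf9 (-0.41), and 3 after removing the trend on GC content and length, with Srsf7 (-0.27) and the first row of Srsf10 (-0.38). It was 5 with array weights, with Srsf1 (-0.18), Srsf7 (-0.26), Srsf9 (-0.23) and Srsf11 (-0.17). Array weights count the mouse apart least, at 0.0843. With each mouse left out in turn the number lay between 0 and 3, and log2 fold changes between -0.42 and -0.18 for Srsf1, -0.54 and -0.28 for Srsf3, -0.47 and -0.23 for Srsf7, -0.45 and -0.23 for Srsf9, and -0.63 and -0.30 for the first row of Srsf10. Without the bigenic mouse of the third column this row of Srsf10 was called (-0.63, limma adjusted p = 0.0170), and without that of the first column Srsf9 was (-0.45, limma adjusted p = 0.0424). Over all 10588 genes, array weights called 2844 lower, against 1629 in the main fit, so the 5 stand against a larger background. Quantile normalization called 1845 lower, a filter in every mouse 1417 of 8980, and removal of the trend 1878 of 10220. With each mouse left out, 1113 to 2134 of all genes were called lower.

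SR-related genes called higher numbered 2 with no filter, 11 with array weights, 1 at 0.01 and 2 to 5 with mice left out (2 without bigenic column 3 or 4 or nontransgenic column 3), and those called lower 1 after quantile normalization, 5 with array weights and 0 to 1 with mice left out. Kinases called higher numbered 5 with array weights and 1 at 0.01, and those called lower 4 after quantile normalization, 3 with array weights, 2 after removing the trend and 1 to 2 with mice left out (2 without the mouse apart, bigenic column 3 or 4 or nontransgenic column 1). Phosphatases called higher numbered 1 with array weights. Import and export genes called higher numbered 1 at 0.01 and 2 to 5 with mice left out (2 without nontransgenic column 1, 2 or 3), and those called lower 1 at 0.01. Over all 10588 genes, array weights called 3611 higher and 2844 lower, and quantile normalization 1845 lower. No filter gave 2229 higher of 20912. With mice left out, 1512 to 2683 of all genes were called higher and 1113 to 2134 lower. The causes were not tested. No paired analysis was possible because the columns of the deposited table carry no replicate numbers of the labels. With 4 mice a group the intervals are wide. Over all 8 mice, those of Srsf1, Srsf2, Srsf6, Srsf7, Srsf9 and the first row of Srsf10 do not exclude a fall of the size seen in Srsf3. Without the mouse apart Srsf3 was at -0.28, and the intervals of Srsf2 (-0.25 to 0.08) and Srsf6 (-0.15 to 0.10) do not reach it. Those of Srsf1, Srsf7, Srsf9 and the first row of Srsf10 still do. In this fit the intervals of Srsf4 (-0.36 to -0.01) and Srsf11 (-0.31 to 0.02) reach it as well.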

Other observations

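The pathway lists held other genes past the threshold, named here after their values were seen. Besides Ppp1cb and Ppp2cb, the phosphatase subunits Ppp1ca (-0.42, limma adjusted p = 0.0207) and Ppp2ca (-0.65, limma adjusted p = 0.00957) fell, each with all 4 bigenic mice below all 4 nontransgenic mice. Among decay factors, Dhx34, a helicase that acts with Upf1, rose by 0.83 (limma adjusted p = 0.00361), from 146 to 181 normalized counts in the nontransgenic mice to 218 to 364 in the bigenic mice. Smg8, a partner of the Upf1 kinase, rose by 0.45 (limma adjusted p = 0.00869).

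Son, a large scaffold of nuclear speckles, rose by 0.24 (limma adjusted p = 0.0195), from 12771 to 13705 normalized counts in the nontransgenic mice to 15008 to 16546 in the bigenic mice. Cwc22, which loads the exon junction complex during splicing, rose by 0.30 (limma adjusted p = 0.0424), with overlap between the groups. Dyrk1a, a speckle-associated kinase, rose by 0.26 (limma adjusted p = 0.0458), also with overlap. For export, Thoc2 of the THO complex rose by 0.31 (limma adjusted p = 0.0208), the RNA helicase Ddx39b by 0.32 (limma adjusted p = 0.0178) and the importin Ipo8 by 0.42 (limma adjusted p = 0.0223).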
